A study of Homo sapiens with 3 samples.

Results

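The regions described here are those called for H3K27ac and H3K4me1 in the clustered zinc finger genes of human chromosome 19, in the prostate cancer line LNCaP. A region was a member when it overlapped 1 of 5 hg19 intervals. Cluster 1 runs from 19.90 to 24.30 Mb, cluster 2 from 36.60 to 38.40 Mb, cluster 3 from 44.30 to 45.00 Mb, cluster 4 from 52.30 to 53.95 Mb and cluster 5 from 56.80 to 58.90 Mb, 10.65 Mb in all. They hold 169 of the 1739 H3K27ac regions of the chromosome and 398 of its 5693 H3K4me1 regions, which is 567 of the 271891 regions in both lists genome-wide. LNCaP derives from a metastatic prostate carcinoma and responds to androgen. The series has 3 samples of this line, an H3K27ac ChIP, an H3K4me1 ChIP and an input without antibody, of which the input was not analysed here. The labels give no treatment or engineered change. Each mark has 1 library, so no p-value could be computed. The intervals in brackets below are exact Clopper-Pearson 95% intervals over regions; they cover counting error only and are too narrow, since neighbouring regions are not independent.

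KRAB zinc finger genes encode DNA-binding repressors. Each protein joins an array of zinc fingers, which reads DNA, to a KRAB domain, which recruits the corepressor TRIM28 and through it the H3K9 methyltransferase SETDB1. Many of them bind transposable elements. The genes multiplied by tandem duplication, and they sit side by side in long clusters on chromosome 19 whose gene bodies often carry the repressive mark H3K9me3 while the promoters stay open. H3K27ac marks active promoters and enhancers. H3K4me1 marks enhancers and also the flanks of active promoters, whose centre carries H3K4me3 in its place; H3K9me3 and H3K4me3 are not measured in this series.

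The gene table used for names is RefSeq on GRCh38, a different build, so no gene was assigned to a region and the presence of zinc finger genes in the intervals was not checked by coordinates. By symbol, 266 of the 1451 protein-coding genes of chromosome 19 in that table are zinc finger genes (18.3%), and 213 of them stand in 18 unbroken runs of at least 5 neighbours. The longest run has 27 genes, from ZNF737 to ZNF681. The run of 24 genes from ZNF627 to ZNF791 is a separate cluster of the short arm, so the rest of the chromosome is not free of zinc finger genes.

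The CpG content of such promoters differed from gene to gene. In the 4 other runs of at least 20 genes, 80 of 94 genes had a promoter sequence, and the 250 bases before the start held a median of 12 CpG (quartiles 9 and 17). Over all 229 zinc finger genes with a sequence the median was 16 (quartiles 11 and 21), and for the 956 other protein-coding genes of the chromosome with a sequence it was 17 (quartiles 7 and 25). Shorter runs, such as those of 10 genes from ZNF577 to ZNF836 and from ZNF766 to ZNF83, are not among the 4 long runs. The 3 promoters below are those with the fewest, the median and the most CpG of the 80. They are shown to display the range of promoter sequence in the 4 long runs, not in all clustered zinc finger genes. Whether any of them carries a called region was not determined. They are RefSeq sequences of GRCh38, 5′ to 3′ on the gene's strand, with each CpG in capitals.
ZNF404: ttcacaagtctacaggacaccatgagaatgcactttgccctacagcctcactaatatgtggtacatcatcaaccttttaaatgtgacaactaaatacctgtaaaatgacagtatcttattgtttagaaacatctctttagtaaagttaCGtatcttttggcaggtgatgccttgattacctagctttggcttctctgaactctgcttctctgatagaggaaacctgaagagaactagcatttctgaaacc
ZNF225: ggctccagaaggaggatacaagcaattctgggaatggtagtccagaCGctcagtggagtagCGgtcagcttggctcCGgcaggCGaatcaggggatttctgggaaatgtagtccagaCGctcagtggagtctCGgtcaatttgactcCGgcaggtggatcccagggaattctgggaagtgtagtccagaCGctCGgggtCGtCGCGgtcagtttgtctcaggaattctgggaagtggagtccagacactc
ZFP82: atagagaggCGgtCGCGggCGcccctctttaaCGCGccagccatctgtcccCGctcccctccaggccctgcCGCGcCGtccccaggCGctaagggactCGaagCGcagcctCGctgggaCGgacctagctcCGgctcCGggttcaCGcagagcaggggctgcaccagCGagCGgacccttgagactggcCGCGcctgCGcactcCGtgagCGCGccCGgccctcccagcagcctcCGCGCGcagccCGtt
ZNF404 (minus strand) has 1 CpG and 38.4% G and C. ZNF225 (plus strand), from the same run of 20 genes between ZNF283 and ZNF180, has 12 CpG and 56% G and C. ZFP82 (minus strand), from the run of 24 genes between ZNF565 and ZNF793, has 31 CpG and 73.2% G and C.

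Called regions of both marks were sparse in the clusters, those of H3K4me1 more so than those of H3K27ac. H3K27ac regions covered 30.7 kb per Mb in the clusters and 79.2 kb per Mb in the other 48.4 Mb of the chromosome, a 2.58-fold lower density. H3K4me1 covered 43.7 kb per Mb in the clusters and 188 kb per Mb elsewhere, a 4.31-fold lower density. By number, H3K27ac had 15.9 regions per Mb (exact Poisson 95% interval 13.6 to 18.4) against 32.4 (30.8 to 34.0), and H3K4me1 had 37.4 (33.8 to 41.2) against 109 (106 to 112). The length of H3K27ac relative to H3K4me1 was therefore higher in the clusters, at 0.703, than in the rest, at 0.421. The stretches within 1 Mb of a cluster resembled the rest of the chromosome, at 80.4 kb per Mb for H3K27ac and 185 kb for H3K4me1. How well reads can be placed in these duplicated genes was not measured, and the treatment of multiply mapping reads is not stated. Its part in the lower density of called regions was not tested.

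The 5 clusters were not alike. In cluster 1, the longest, H3K27ac covered 14.6 kb per Mb and H3K4me1 17.0 kb, and 25 of its 44 windows of 100 kb held no H3K27ac region. Cluster 5, at the end of the long arm, had 59.4 and 85.8 kb per Mb, nearest to the rest of the chromosome, and 3 of its 21 windows held no H3K27ac. Clusters 2 and 4 lay between them, at 38.0 and 33.7 kb per Mb for H3K27ac and 59.3 and 58.6 kb for H3K4me1. Cluster 3 stood apart in its balance: H3K27ac covered 20.6 kb per Mb and H3K4me1 only 9.93 kb, so that 11 H3K27ac regions faced 8 H3K4me1 regions and the length ratio was 2.08. In the other 4 clusters this ratio lay between 0.575 and 0.858. Windows of 100 kb without H3K27ac made up 21.3% of the rest of the chromosome, a share that only cluster 1 (56.8%) exceeded. In clusters 2, 3, 4 and 5 the shares were lower, at 11.1%, 14.3%, 18.8% and 14.3%. The rest includes region-free stretches of 1 Mb or more, which add to its empty windows.

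**Figure D1:**
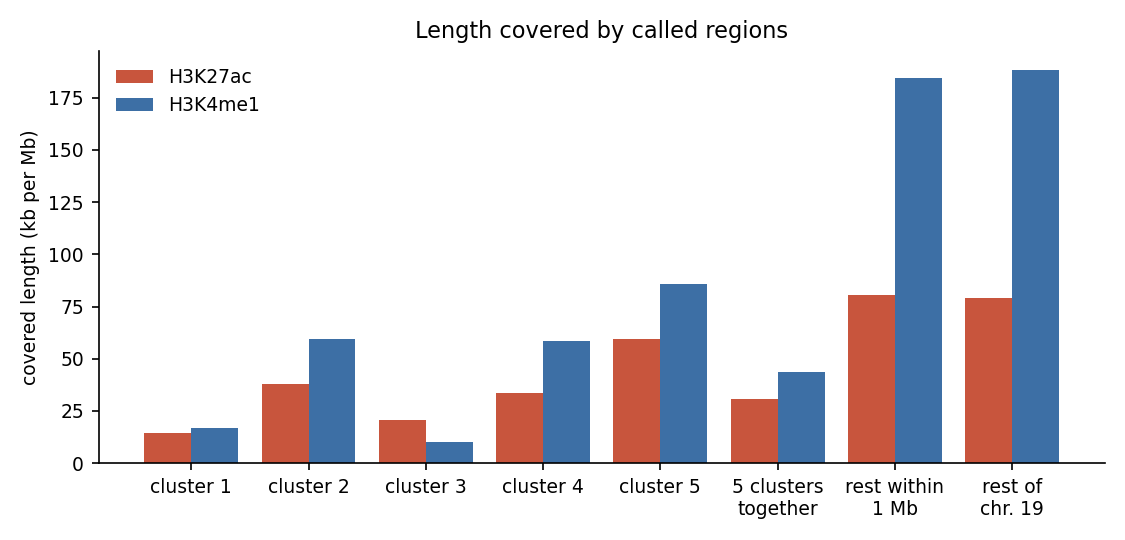
Bars give the length covered by called regions, in kb per Mb, for each mark in each cluster, in the 5 clusters together, in the rest within 1 Mb of a cluster and in the whole rest of chromosome 19; 1 library per mark. Each cluster lies below the rest for both marks, and in cluster 3 the H3K27ac bar (20.6) exceeds the H3K4me1 bar (9.93).

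The lower density was made of regions that were farther apart and somewhat narrower. Midpoints of neighbouring H3K27ac regions were a median of 33.1 kb apart in the clusters (quartiles 18.8 and 55.9 kb) and 13.8 kb apart elsewhere (6.10 and 30.7 kb). H3K4me1 midpoints were 12.8 kb apart (3.58 and 28.2 kb) against 4.73 kb (2.65 and 9.15 kb). The median H3K27ac region was 1650 bp wide in the clusters, with quartiles of 1200 and 2300 bp, against 1975 bp (1150 and 2900 bp) in the rest. Regions at both ends of the width range were a smaller share: 8 of 169 H3K27ac regions were 4 kb or wider (4.73% [2.07 to 9.11]) against 195 of 1570 (12.4% [10.8 to 14.2]), and 18 were under 1 kb (10.7% [6.44 to 16.3]) against 269 (17.1% [15.3 to 19.1]). Regions of 1 to 2 kb made up 50.9% [43.1 to 58.6] against 32.9% [30.5 to 35.3]. For H3K4me1 the median was 900 bp (650 and 1350 bp) against 1050 bp (750 and 2000 bp), and 6 of 398 reached 4 kb (1.51% [0.555 to 3.25]) against 401 of 5295 (7.57% [6.87 to 8.32]).

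At the borders of the intervals the median coverage fell for both marks but not at a sharp edge. In the 500 kb inside against the 500 kb outside, H3K4me1 covered less inside at 8 of the 9 borders with a full outside stretch, and H3K27ac at 7 of 9. Cluster 3 is so short that its inside stretches share 300 kb; without its borders the counts are 6 and 5 of 7. At the left border of cluster 1, H3K4me1 covered 6.15 kb inside and 131 kb outside, and at the right border of cluster 2 it covered 19.6 kb inside and 171 kb outside. The right border of cluster 1 was the exception for both marks, with 21.7 kb of H3K4me1 inside and none outside, and 14.7 kb of H3K27ac inside and 1.5 kb outside; this border faces the centromere. At the left border of cluster 4, H3K27ac covered 24.1 kb inside and 23.7 kb outside. In the first 100 kb inside, the median over 10 borders was 8.28 kb of H3K4me1, near the 6.80 kb of the first 100 kb outside, and it fell to 2.05 kb at 400 to 500 kb inside. For H3K27ac these medians were 4.025 kb, 3.525 kb and 1.725 kb.

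**Figure D2:**
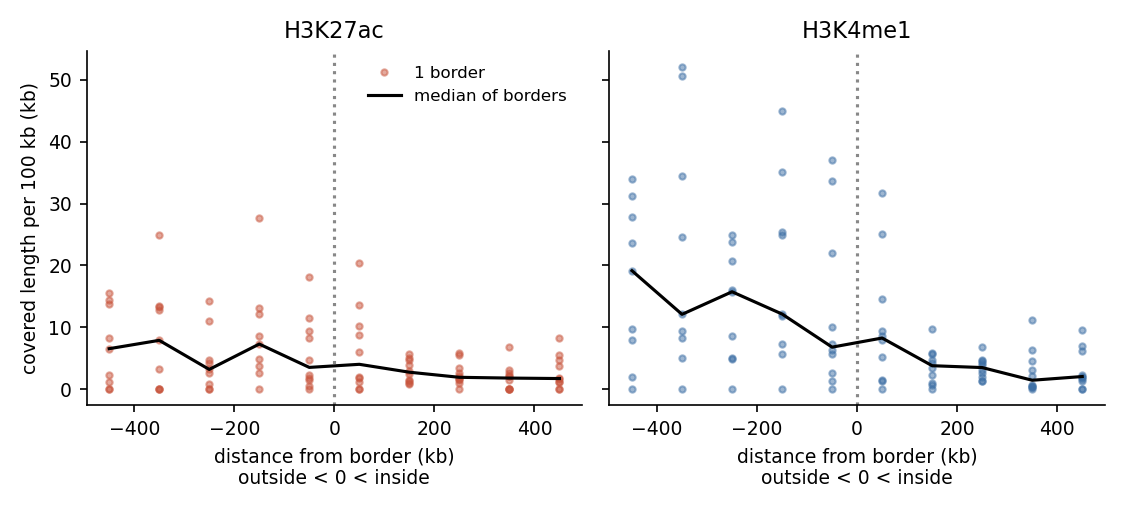
Points give the length covered per 100 kb (kb) at each cluster border against distance from the border (kb, negative outside), and the line gives the median over borders; bins that reach another cluster or pass the last region are left out. The H3K4me1 median falls from 19.2 kb at the outermost bin to 2.05 kb at the innermost, and the H3K27ac median from 6.55 kb to 1.725 kb. Single borders scatter widely.

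The next comparison asked how the marks combine. Fewer H3K27ac regions met H3K4me1 in the clusters, 141 of 169 (83.4% [77.0 to 88.7]) against 1496 of 1570 elsewhere (95.3% [94.1 to 96.3]), a difference of -11.9 percentage points (Newcombe 95% interval -18.3 to -6.87). The opposite held for H3K4me1: 180 of 398 regions met H3K27ac in the clusters (45.2% [40.3 to 50.3]) against 1678 of 5295 elsewhere (31.7% [30.4 to 33.0]), 13.5 points more (8.55 to 18.6). H3K4me1 regions apart from H3K27ac numbered 218 in the 10.65 Mb of the clusters and 3617 in the other 48.4 Mb.

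Both differences were also seen between regions of equal width. H3K27ac regions under 1 kb overlapped H3K4me1 in 9 of 18 cases in the clusters (50% [26.0 to 74.0]) and in 223 of 269 elsewhere (82.9% [77.9 to 87.2]). At 1 to 2 kb the shares were 80.2% [70.2 to 88.0] and 96.3% [94.3 to 97.8], and at 2 to 4 kb they came together, at 96.5% [87.9 to 99.6] and 98.6% [97.3 to 99.4]. For H3K4me1 the gap was widest at 1 to 2 kb, where 98 of 138 regions overlapped H3K27ac in the clusters (71.0% [62.7 to 78.4]) and 528 of 1716 elsewhere (30.8% [28.6 to 33.0]). All 37 cluster regions of 2 to 4 kb overlapped H3K27ac (100% [90.5 to 100]) against 662 of 927 elsewhere (71.4% [68.4 to 74.3]), and so did all 6 of 4 kb or more. With the rest weighted to the widths of the cluster regions, its H3K4me1 share was 21.5%, which is 23.8 points below the clusters. No H3K4me1 region of 2 kb or wider in the clusters thus lay outside H3K27ac.

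**Figure D3:**
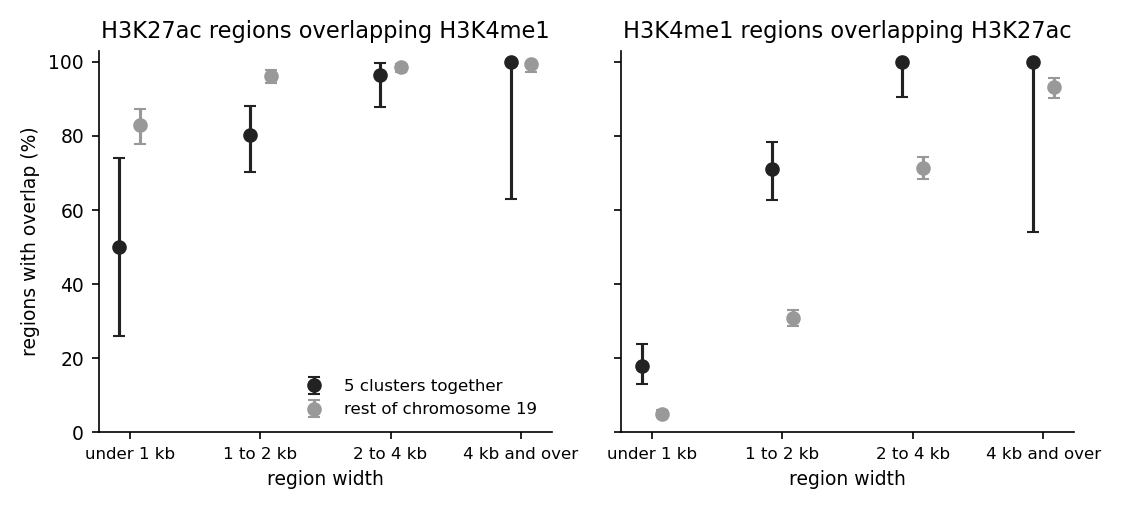
Points give the share of regions (%) that overlap the other mark by at least 1 bp, by width class, in the 5 clusters and in the rest of chromosome 19; bars are exact 95% intervals over regions. In the clusters H3K27ac regions under 2 kb lie lower than in the rest and H3K4me1 regions under 4 kb lie higher.

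The clusters parted in this measure too. H3K27ac regions met H3K4me1 in 24 of 37 cases in cluster 1 (64.9% [47.5 to 79.8]) and in 4 of 11 in cluster 3 (36.4% [10.9 to 69.2]). In cluster 2 it was 29 of 31 (93.5% [78.6 to 99.2]), in cluster 4 it was 29 of 33 (87.9% [71.8 to 96.6]) and in cluster 5 it was 55 of 57 (96.5% [87.9 to 99.6]), shares whose intervals include that of the rest of the chromosome. The shortfall thus lay mainly in clusters 1 and 3, and without cluster 1 the difference from the rest was -6.65 points. The share of H3K4me1 regions with H3K27ac ranged only from 37.8% [27.8 to 48.6] in cluster 4 to 52.3% [43.4 to 61.0] in cluster 5.

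H3K27ac regions without H3K4me1 lay farther from it in the clusters than elsewhere. The 28 such regions of the clusters had a median distance of 9775 bp to the nearest H3K4me1 region, against 2200 bp for the 74 elsewhere. H3K4me1 midpoints were themselves a median of 12.8 kb apart in the clusters and 4.73 kb elsewhere. Whether the distances exceed what this wider spacing gives was not tested. More than 10 kb separated 14 of all 169 cluster regions from H3K4me1 (8.28% [4.60 to 13.5]) against 15 of 1570 elsewhere (0.955% [0.536 to 1.57]). Of these 14, 6 lay in cluster 1 and 6 in cluster 3. The distances of the 28 reached 139450 bp, in cluster 1. The widest region without H3K4me1 in each cluster is given next. In cluster 1 it was 2300 bp wide (chr19:21418551-21420850) and 82.8 kb from H3K4me1. In cluster 2 it was 1800 bp (chr19:37287651-37289450) at 22.9 kb, and in cluster 3 it was 1750 bp (chr19:44758151-44759900) at 11.2 kb. In cluster 4 it was 2050 bp (chr19:52551201-52553250) at 18.6 kb. In cluster 5 the nearest H3K4me1 region was only 1 kb from the widest one, which was 1900 bp (chr19:57345451-57347350).

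The clearest difference was in where H3K4me1 lay within an H3K27ac region. In the rest of the chromosome H3K4me1 usually lay at both edges and the midpoint: 1035 of 1570 regions had this layout, with or without gaps between (65.9% [63.5 to 68.3]). In the clusters 40 of 169 did (23.7% [17.5 to 30.8]), a difference of -42.3 points (-48.5 to -34.9). Each edge is a single base, so a region nearly filled by H3K4me1 can miss this layout. H3K4me1 regions that met H3K27ac were also narrower in the clusters, with a median of 1325 bp against 2400 bp elsewhere. H3K4me1 covered 4.37% of the clusters and 18.8% of the rest. Whether the layouts here and below differ beyond what this width and density give was not tested. By length, 65.4% of H3K27ac in the clusters lay in H3K4me1, against 88.5% elsewhere. Regions lying wholly inside H3K4me1 were fewer as well, 31 of 169 (18.3% [12.8 to 25]) against 849 of 1570 (54.1% [51.6 to 56.6]). This held in every width class up to 4 kb, for example at 2 to 4 kb with 12 of 57 (21.1% [11.4 to 33.9]) against 374 of 590 (63.4% [59.4 to 67.3]) at both edges and the midpoint.

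H3K4me1 at exactly 1 edge, or at the midpoint alone, was more frequent in the clusters. H3K4me1 reached exactly 1 edge in 69 of 169 cluster regions (40.8% [33.3 to 48.6]) against 346 of 1570 (22.0% [20 to 24.2]), 18.8 points more (11.4 to 26.6). In 23 of these 69 it stopped short of the midpoint, 13.6% [8.83 to 19.7] of all cluster regions against 4.20% [3.27 to 5.32] elsewhere. H3K4me1 at the midpoint with neither edge covered was seen in 15 of 169 (8.88% [5.05 to 14.2]) against 20 of 1570 (1.27% [0.780 to 1.96]). Cluster 5 had the largest share covered at exactly 1 edge, 31 of 57 regions (54.4% [40.7 to 67.6]). An edge is a single base, so this group includes regions that H3K4me1 nearly fills. An example is a region of 2500 bp in cluster 5 with 2450 bp in H3K4me1 (chr19:58872501-58875000). In cluster 1, 10 of 37 regions had 1 edge covered and a bare midpoint, and in cluster 2 none of 31 did, an upper limit of 11.2%.

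**Figure D4:**
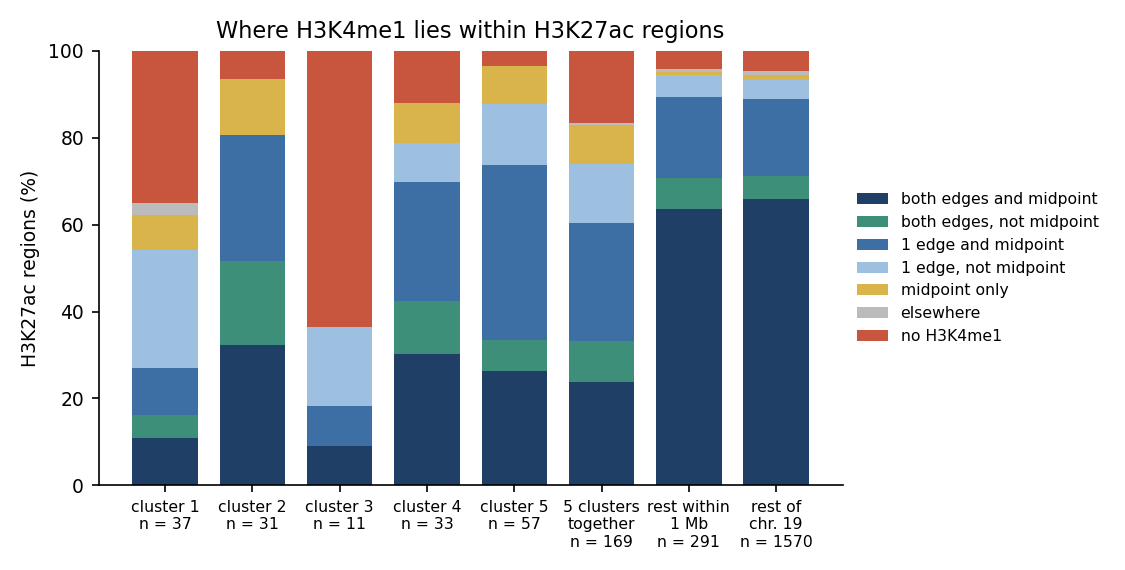
Stacked bars give the share of H3K27ac regions (%) by where H3K4me1 lies within them, for each cluster, the 5 clusters together, the rest within 1 Mb of a cluster and the whole rest of chromosome 19, with the number of regions under each bar. H3K4me1 at both edges and the midpoint, at the foot of the bars, is 23.7% in the clusters and 65.9% in the rest, and regions without H3K4me1, at the top, reach 7 of 11 in cluster 3.

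Shoulders, meaning H3K4me1 at both edges with a bare midpoint, numbered 16 of 169 in the clusters (9.47% [5.51 to 14.9]) and 82 of 1570 elsewhere (5.22% [4.18 to 6.44]). This difference of 4.24 points (0.49 to 9.69) shrank to 0.57 (-3.01 to 6.39) at scores at or below the list medians, to 2.25 (-2.78 to 8.14) against the regions within 1 Mb of a cluster and to 2.02 (-1.46 to 7.69) without cluster 2. Shoulders belonged mostly to regions of 2 to 4 kb, where they made up 13 of 57 (22.8% [12.7 to 35.8]) against 58 of 590 (9.83% [7.55 to 12.5]), a difference of 13 points (3.62 to 25.6). Against the regions within 1 Mb of a cluster, 17 of 116 (14.7% [8.78 to 22.4]), the difference was 8.15 points and its interval included 0 (-3.58 to 21.6), as it did at scores at or below the list medians (7.07 points, -0.75 to 19). Merging regions within 1 kb, which closes the breaks, left shoulders in 1.82% of cluster regions. The bare stretch between the shoulders had a median of 525 bp in the clusters (range 250 to 2550 bp) and 750 bp elsewhere (100 to 3250 bp). By cluster there were 2 of 37 in cluster 1, 6 of 31 in cluster 2, none of 11 in cluster 3, 4 of 33 in cluster 4 and 4 of 57 in cluster 5.

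The widest shouldered regions were among the widest regions of their clusters. In cluster 1 the widest H3K27ac region of all, 7050 bp (chr19:23571651-23578700), met 4 H3K4me1 regions and was bare over 2550 bp in the middle. In cluster 4 the widest region, 3700 bp (chr19:52691351-52695050), was also shouldered, with a bare stretch of 700 bp. In cluster 2 the widest with shoulders was 3300 bp (chr19:36704501-36707800) with 1450 bp bare, and in cluster 5 it was 3150 bp (chr19:58891001-58894150) with 350 bp bare.

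Averaged over regions, H3K4me1 was lower at the centre of the wider cluster regions and was low again a short distance away. In H3K27ac regions of 2 kb and over, 64.6% of the 65 cluster midpoints lay in H3K4me1, and coverage peaked at 77.7% at 0.95 kb to either side, a dip of 13.1 points. In the 785 regions elsewhere the midpoint stood at 84.7% and the peak at 90.5% at 0.75 kb, a dip of 5.80 points. The positions of the peaks were read from the same profiles, so the dips are descriptions. The clusters stayed below the rest at greater distances too: at 2.5 kb from the midpoint 13.1% of positions were in H3K4me1 in the clusters and 50.1% elsewhere, and at 10 kb 15.4% and 33.2%. These regions were not matched for width, and the widest H3K27ac region was 11150 bp in the clusters and 44200 bp elsewhere. A given distance can therefore lie inside the region more often in the rest than in the clusters. In the 104 cluster regions under 2 kb there was almost no dip. Coverage was 56.7% at the midpoint and peaked at 58.7% at 0.1 kb, a dip of 1.92 points. Elsewhere it was highest at the midpoint, at 85.4%. At 2 kb coverage was 5.29% in the clusters and 33.4% elsewhere.

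**Figure D5:**
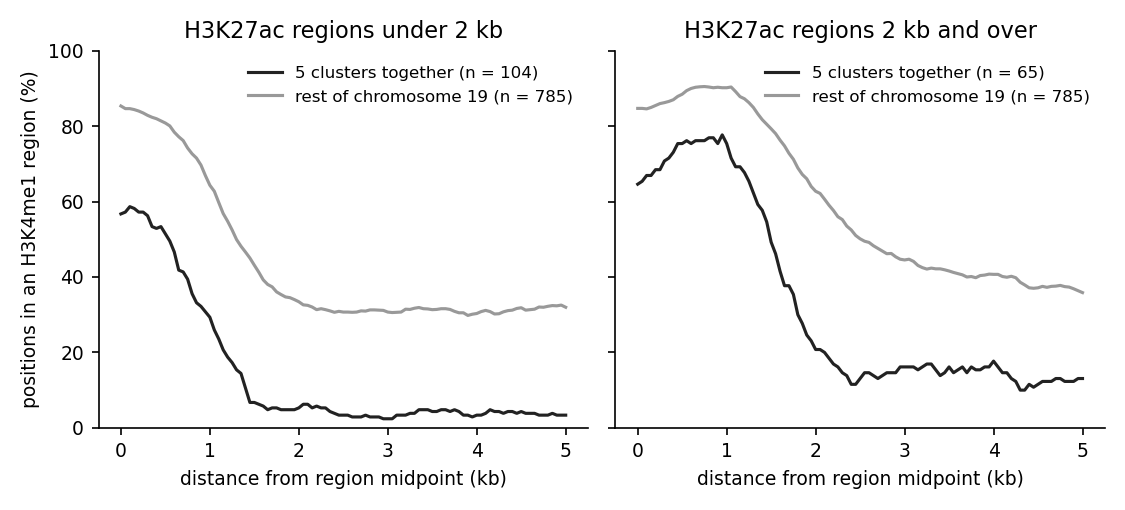
Lines give the share of positions (%) in an H3K4me1 region against distance from the midpoint of the H3K27ac region (kb, both sides averaged), for regions under 2 kb and of 2 kb and over, in the 5 clusters and in the rest of chromosome 19. The cluster lines start lower, show a deeper dip at the centre of the wider regions (64.6% against a peak of 77.7%) and drop within 2.5 kb to a low level.

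Away from H3K27ac, H3K4me1 regions of the clusters were small. The median was 700 bp for the 218 without H3K27ac and 1325 bp for the 180 with it, against 900 and 2400 bp elsewhere. More than 10 kb separated 124 of 398 (31.2% [26.6 to 36.0]) from any H3K27ac region, close to the 31.6% [30.4 to 32.9] elsewhere. The widest ones without H3K27ac were 1250 bp in cluster 1 (chr19:24221451-24222700), 1500 bp in cluster 2 (chr19:37802701-37804200), 900 bp in cluster 3 (chr19:44529651-44530550), 1650 bp in cluster 4 (chr19:53448951-53450600) and 1900 bp in cluster 5 (chr19:58088751-58090650).

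The score deposited with each region did not set the cluster regions apart in 1 direction. It lies in the range of a false discovery rate, where a low value would mark a stronger region, but its meaning is not stated; wide regions have low scores, and it was used only within a list. For H3K27ac, 131 of 169 cluster regions had a score at or below the list median of 0.009 (77.5% [70.5 to 83.6]) against 1096 of 1570 (69.8% [67.5 to 72.1]). The difference was 7.71 points (0.49 to 13.8), but 4.32 (-4.04 to 12.1) against the regions within 1 Mb of a cluster and 3.41 (-5.74 to 11.1) without cluster 5; merging, cut borders and leaving out cluster 2 or 4 also gave intervals that include 0. Between regions of 1 to 2 kb the shares were 77.9% [67.7 to 86.1] and 60.5% [56.1 to 64.7]. The lowest score, 0.001, was less frequent in the clusters, at 28 of 169 (16.6% [11.3 to 23.0]) against 373 of 1570 (23.8% [21.7 to 25.9]). For H3K4me1, 156 of 398 were at or below the list median of 0.008 (39.2% [34.4 to 44.2]) against 2718 of 5295 (51.3% [50.0 to 52.7]), and this gap was gone at equal widths, where the weighted share of the rest was 39.4%. Cluster 1 had 24.7% [15.8 to 35.5] of its H3K4me1 regions at or below that median and cluster 5 had 51.5% [42.7 to 60.3].

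Broad acetylation was found at 1 place in particular. The widest H3K27ac region of the clusters lay in cluster 5 and was 11150 bp wide (chr19:58309251-58320400). H3K4me1 covered 90.1% of it, and the widest H3K4me1 region of the clusters, 7700 bp (chr19:58311301-58319000), lay wholly inside it. The next H3K27ac regions followed closely, with widths of 7100 bp (chr19:58320651-58327750), 2800 bp (chr19:58329851-58332650) and 4100 bp (chr19:58332901-58337000). All of them count towards the H3K27ac density of cluster 5. The widest of cluster 2, 6000 bp (chr19:36626501-36632500), was 85.8% covered by H3K4me1 and overlapped the widest H3K4me1 region there, 5400 bp (chr19:36625651-36631050). In cluster 3 the widest H3K27ac region was 1850 bp (chr19:44598301-44600150), 35.1% of it in H3K4me1, and the widest H3K4me1 region was 1050 bp (chr19:44771051-44772100). The widest H3K4me1 regions of clusters 1 and 4 were 4150 bp (chr19:24235951-24240100) and 3100 bp (chr19:53933901-53937000), 66.3% and 77.4% of them in H3K27ac.

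Long stretches of the clusters carried neither mark, but such stretches were not particular to them. The rest of the chromosome holds region-free stretches of 1 Mb or more, longer than any given below. Removing those moved the H3K27ac density of the clusters relative to the rest from 0.388 to 0.362. Their lengths were not listed. In cluster 1 the longest ran for 609 kb (chr19:22617651-23226500). The longest of the other clusters were 123 kb in cluster 2 (chr19:37960551-38083850), 106 kb in cluster 3 (chr19:44332201-44438050), and 155 kb in both cluster 4 (chr19:53561851-53716900) and cluster 5 (chr19:57190351-57345450). The lists carry no read counts, so depth is unknown, and a stretch without a called region may still carry some of either mark. How well reads can be placed in these stretches was not measured.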

How the data were processed

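Each mark was represented by 1 deposited list of hg19 regions with a chromosome, a start, an end and an unnamed score. Per the submitters' processing notes, reads were aligned with Bowtie 0.12.8 to hg19. The region caller, its threshold, the treatment of duplicate and multiply mapping reads and the use of the input are not stated in any source used; these choices set the number and width of regions. The scores the authors deposited lie between 0.001 and 0.048 in the H3K27ac list and reach 0.093 in the H3K4me1 list; all positions fall on a 50 bp grid. Copy number was not corrected for.

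Starts were read as 0-based and are printed counted from 1. A region overlapped when it shared at least 1 bp with the other list; 1 region of each list crossed a cluster border and counted as a member, while covered length was cut at the border. The rest of chromosome 19 ran from its start to the last region. Edges were the first and last base of a region. Differences of shares carry Newcombe intervals. The calls of overlap, shoulders, bare stretches, distance and cluster membership were tested on simulated layouts of 400 regions, all recovered. Densities, border bins, midpoint profiles, the other layouts, width weighting and intervals were not tested in this way. The members, clusters and measures were chosen with earlier results of these data known. Regions named are the widest per cluster of each kind and the longest stretch without either mark; values of single clusters, edges and width classes were chosen after the data were seen, as were the criteria for the 3 promoters. Analyses used numpy 2.4.6, scipy 1.17.1, pandas 2.3.3 and, for figures, matplotlib 3.10.9 under Python 3.11.15.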

Additional observations from a re-analysis of the deposited data

How the results depend on the processing

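Of 253 alternative values, 231 stayed within the interval of the main value, or within 1.5-fold of it for densities and widths, and 22 moved. None of the densities relative to the rest or differences of shares turned its direction, and shares and widths were not judged for direction. Some values equal the main value by construction, such as shares in the clusters where only the comparison stretch was changed. The counts are therefore no measure of robustness. H3K27ac density in the clusters relative to the rest, 0.388, ranged from 0.299 without cluster 5 to 0.531 without cluster 1, and H3K4me1 density, 0.232, from 0.177 to 0.342 (by number of regions). At scores at or below the list median, 74.8% of H3K27ac regions met H3K4me1 (-20.6 points from the rest), 72.4% of H3K4me1 regions met H3K27ac (26.8 points) and the median H3K4me1 width was 1500 bp. Where overlap required 50% of a region these shares were 66.9% (-23.6 points) and 37.9%. The H3K27ac difference was -6.65 points without cluster 1; without cluster 5 the share was 76.8% (-18.5 points), and low H3K4me1 scores made up 33.1% (-18.2 points). Weighting the rest to cluster widths gave 23.8 points for H3K4me1 overlap and, added after seeing the data, -0.17 points for low H3K4me1 scores. With H3K4me1 scores under 0.05 alone, also added, 62.2% of H3K4me1 regions met H3K27ac (21.7 points) and 59.5% had low scores. Merging regions within 1 kb, which closes short breaks by construction, left shoulders in 1.82% of H3K27ac regions, in 3.51% of those of 2 to 4 kb (1.44 points above the rest), and raised the share with H3K4me1 at both edges and midpoint to 33.3%. Low scores could not be recomputed among low scores. No paired analysis was possible because H3K27ac and H3K4me1 have 1 library each. Depth is unknown, so missing regions remain uninterpreted.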
